A study of Mus musculus with 4 samples.

Results

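The hypoxia response was followed in mouse liver through 9 of the 19938 genes that had a probe set with a single symbol: the oxygen-regulated factors Hif1a and Epas1, the prolyl hydroxylases Egln1 and Egln3, and the hypoxia targets outside glycolysis Vegfa, Adm, Ndrg1, Bnip3 and Ankrd37. They were picked by gene symbol with earlier results of these data known. All 9 were above the filter on low values that 11963 genes passed. The groups were KO-labelled liver at 8 months and at 2 months, from mice with the genotype SIRT6Co/Co ;Alb-Cre, and WT-labelled liver (WT SIRT6) at 8 months and at 2 months. Alb-Cre expresses Cre recombinase from the albumin promoter, which directs the deletion mainly to hepatocytes. Which other liver cells kept the conditional Sirt6 allele was not measured here. Each group was 1 Affymetrix Mouse Gene 1.0 ST array of RNA combined from 3 pairs of mice. The spread between animals therefore cannot be seen, and whether the WT-labelled mice carried Cre was not given in the sources used here.

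Hypoxia-inducible factors are pairs of an oxygen-regulated alpha subunit, encoded by Hif1a or Epas1, and the stable partner ARNT. In oxygen the EGLN prolyl hydroxylases modify the alpha subunit, the VHL ubiquitin ligase then marks it for degradation, and in hypoxia it accumulates and binds short DNA elements near its targets. Because this control acts mainly on the protein, the mRNA of an alpha subunit is not a measure of its activity, and the target transcripts are the usual readout. In liver, oxygen falls from the portal to the central vein, and Hif1a and Epas1 act on glucose, lipid and iron metabolism. SIRT6, a chromatin-bound deacetylase, has been described as a corepressor of HIF1A at glycolytic genes in mouse cells, and the genes here are those of the same system that lie outside glycolysis.

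The promoters of 4 of the genes are printed so that the matches to the core of the hypoxia response element can be seen beside the expression values. Egln3 is the gene with a promoter in the table whose level passed the test, Adm and Bnip3 passed it only under some settings, and Ankrd37 is shown as a gene that did not. The sequences are from RefSeq (GRCm38.p6), 250 bases before to 50 after the annotated start, 5′ to 3′ on the gene's strand, with capitals marking ACGTG and GCGTG on either strand. Egln3 is at chr12:54203825-54204124 (minus strand), Adm at chr7:110627407-110627706 (plus strand), Bnip3 at chr7:138909457-138909756 (minus strand) and Ankrd37 at chr8:45999801-46000100 (minus strand).
Egln3: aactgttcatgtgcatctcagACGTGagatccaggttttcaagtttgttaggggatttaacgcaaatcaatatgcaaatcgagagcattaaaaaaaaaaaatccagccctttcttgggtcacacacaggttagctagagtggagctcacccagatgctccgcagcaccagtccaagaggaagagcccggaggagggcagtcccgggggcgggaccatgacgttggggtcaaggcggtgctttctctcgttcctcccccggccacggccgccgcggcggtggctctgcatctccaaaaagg
Adm: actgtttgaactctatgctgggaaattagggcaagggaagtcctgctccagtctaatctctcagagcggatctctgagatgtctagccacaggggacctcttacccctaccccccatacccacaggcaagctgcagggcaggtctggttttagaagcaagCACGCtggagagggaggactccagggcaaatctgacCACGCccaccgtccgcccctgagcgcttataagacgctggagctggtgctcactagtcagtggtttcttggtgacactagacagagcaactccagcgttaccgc
Bnip3: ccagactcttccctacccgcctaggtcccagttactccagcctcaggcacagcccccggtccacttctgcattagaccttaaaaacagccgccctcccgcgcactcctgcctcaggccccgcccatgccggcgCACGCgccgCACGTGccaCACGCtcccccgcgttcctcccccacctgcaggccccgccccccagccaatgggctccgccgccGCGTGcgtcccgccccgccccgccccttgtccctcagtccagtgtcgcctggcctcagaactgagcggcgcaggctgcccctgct
Ankrd37: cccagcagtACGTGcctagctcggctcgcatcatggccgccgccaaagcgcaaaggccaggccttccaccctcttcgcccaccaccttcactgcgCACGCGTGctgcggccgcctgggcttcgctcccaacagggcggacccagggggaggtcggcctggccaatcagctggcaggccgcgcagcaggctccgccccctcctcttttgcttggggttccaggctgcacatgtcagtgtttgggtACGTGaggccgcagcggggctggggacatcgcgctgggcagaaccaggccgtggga

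A match was found in at least 1 promoter of each of the 7 genes that the table holds, which leaves Epas1 and Ndrg1 named only. Counted by promoter, as the shares below are, 7 of 8 held a match. Over all 32851 promoters in the table, 43.8% held ACGTG or GCGTG, 19.6% held ACGTG and 32.4% held GCGTG. Bnip3 had 5 matches and Hif1a had 3, each with a single CACGTG counted on both strands. Counted once, they had 4 and 2. CACGTG is a palindrome that is also the E-box bound by other factors, and 7.15% of all promoters held it. Ankrd37 had 4 matches, including an overlapping pair in CACGCGTG, Adm and Egln1 had 2 each, and Egln3 had 1. Of the 2 Vegfa windows, the one upstream on the gene's strand held 0 matches and the one downstream held 2. A match is a string of letters and was not read as a bound site.

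The values are log2 RMA intensities as deposited. A level of one gene cannot be set against that of another, since probes differ, so only differences between arrays are compared. The array medians lay between 3.52 and 3.58. Hepatocyte markers were near the top of the deposited range, which ended at 13.3: Alb (albumin) read 12.52 and 12.60 in KO-labelled arrays at 8 and 2 months, against 12.56 and 12.54 in WT-labelled arrays. The Sirt6 probe set did not separate the genotypes, with 4.46 and 4.54 in KO-labelled arrays at 8 and 2 months and 4.50 and 4.55 in WT-labelled arrays. The exons it covers are unknown here, and all genotype directions below rest on the labels. A difference between 2 single arrays has no test. The test was an additive limma model of genotype and age over the 4 arrays, with Benjamini-Hochberg adjustment over 11963 genes at 0.05. Its residual is the departure from additivity, so its p-values measure neither the spread between pools nor that between animals.

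Among the 9 genes, Egln3 rose and Ndrg1 fell in the KO-labelled arrays, and the other 7 did not pass the test. Of all genes tested, 6.81% rose and 4.26% fell, 11.1% in either direction, so 1 of 9 in each direction is near the background. Neither call held in every fit that left out 1 array, as given with each gene. At an unadjusted p under 0.05, Adm and Bnip3 joined them, which makes 4 of 9 against 25.0% of all genes. Adm passed the filter only through the KO-labelled arrays, so its place in this count is no support for a change. The genotype differences of the 9 genes had a median of -0.10, with 4 of them above 0, beside a median of 0.00 over all genes tested.

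**Figure D1:**
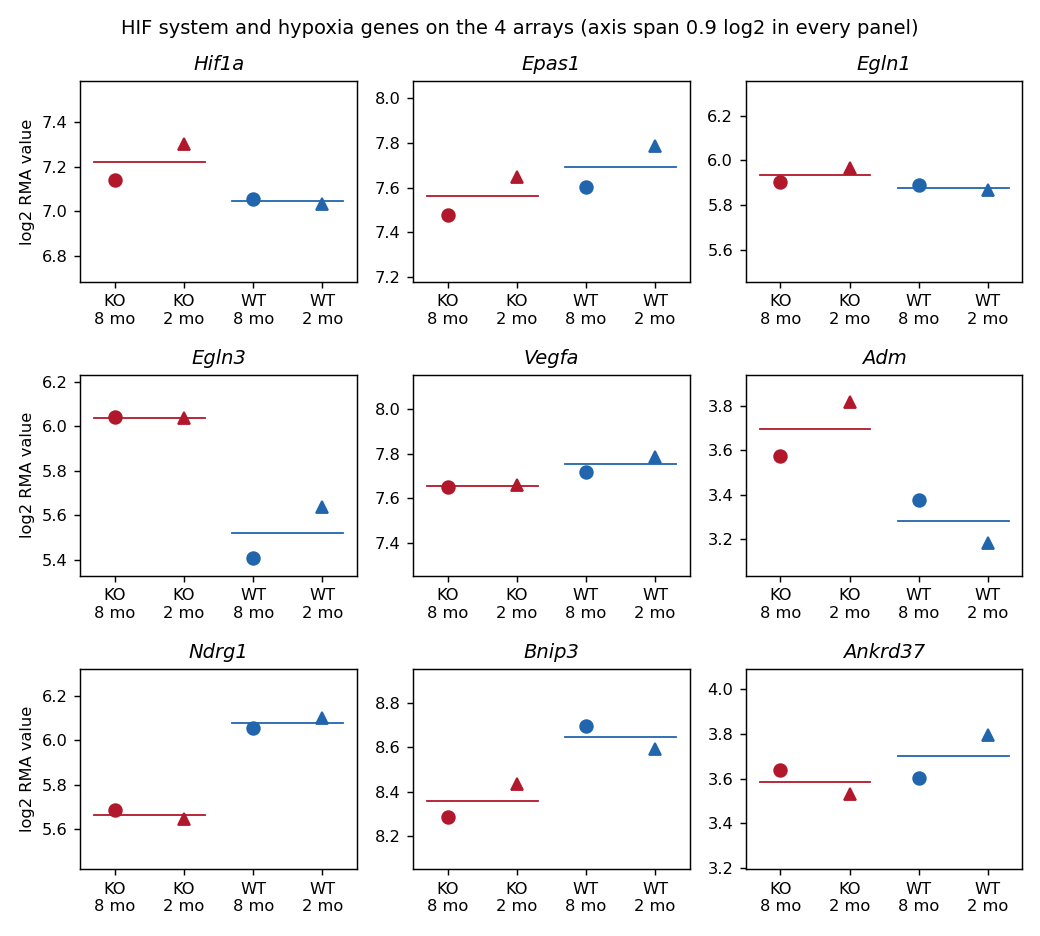
Log2 RMA value of each of the 9 genes (y axis, 0.9 log2 units in every panel) on the 4 arrays (x axis, KO-labelled in red and WT-labelled in blue, circles for 8 months and triangles for 2 months), with a line at the mean of the 2 arrays of a genotype. Egln3 reads 6.04 on both KO-labelled arrays, above 5.41 and 5.64 on the WT-labelled ones, Ndrg1 is lower on both KO-labelled arrays, and the arrays overlap for Epas1 and Ankrd37.

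Hif1a, the alpha subunit of HIF-1, read 7.14 and 7.30 in KO-labelled arrays at 8 and 2 months, against 7.05 and 7.03 in WT-labelled arrays. Both KO-labelled arrays were above both WT-labelled ones, and the KO-labelled array at 2 months was the highest. The genotype difference was 0.18 (95% interval -0.02 to 0.38), with a limma adjusted p of 0.26. Epas1, the alpha subunit of HIF-2, which is abundant in endothelial cells and hepatocytes, read 7.48 and 7.65 in KO-labelled arrays at 8 and 2 months and 7.60 and 7.79 in WT-labelled arrays. The genotypes overlapped, and at each age the KO-labelled array was the lower one, by 0.12 at 8 months and 0.14 at 2 months. The difference of -0.13 (95% interval -0.31 to 0.05) had a limma adjusted p of 0.38.

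Arnt, the partner subunit, read 6.98 and 7.06 in KO-labelled arrays at 8 and 2 months and 7.01 and 6.95 in WT-labelled arrays. Its difference of 0.04 had a limma adjusted p of 0.84. The transcripts of the 3 subunits therefore gave no call in either direction. The model's intervals for Hif1a and Epas1 lie within 1.5-fold, which is 0.58 log2 units. They do not hold the spread between pools or animals, so such a difference is not excluded and a lack of change is not shown.

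The hydroxylases EGLN1 and EGLN3 use oxygen to mark HIF alpha subunits, and Egln3 is itself a strongly hypoxia-induced target. Egln3 read 6.04 in both KO-labelled arrays, against 5.41 and 5.64 in the WT-labelled arrays at 8 and 2 months. The 2 KO-labelled arrays were level with each other, and the gap was wider at 8 months, where the WT-labelled array was lower. The difference was 0.63 at 8 months and 0.40 at 2 months, which is 1.55-fold and 1.32-fold. Over both ages Egln3 rose by 0.52 (SE 0.11, 95% interval 0.27 to 0.76, 1.43-fold), with a limma adjusted p of 0.010. Of all genes tested, 5.44% had a mean difference at least as large in size. In a model of genotype alone with 1 array left out, the difference was 0.40 to 0.63. The call was then lost without the KO-labelled array at 8 months (limma adjusted p 0.078), the KO-labelled array at 2 months (0.11) or the WT-labelled array at 8 months (0.082), and held without the WT-labelled array at 2 months (0.0087).

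Egln1, the main oxygen sensor of most tissues, read 5.90 and 5.96 in KO-labelled arrays at 8 and 2 months, against 5.89 and 5.87 in WT-labelled arrays. The 4 values lay within 0.1 log2 units, and the difference of 0.06 (95% interval -0.17 to 0.28) had a limma adjusted p of 0.81. Egln2, the third hydroxylase, was at -0.07 with a limma adjusted p of 0.69, and Hif1an, the asparaginyl hydroxylase that limits HIF transactivation, was at 0.01 with 0.96. Egln3 was thus the only one of these 4 hydroxylase genes that passed the test. The differences between hydroxylases were themselves not tested.

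Vegfa, the ligand that drives growth of blood vessels, read 7.65 and 7.66 in KO-labelled arrays at 8 and 2 months and 7.72 and 7.79 in WT-labelled arrays. Both KO-labelled arrays were below both WT-labelled ones by a small margin. The difference was -0.10 (95% interval -0.28 to 0.09) with a limma adjusted p of 0.54. Adm encodes the vasodilator peptide adrenomedullin. It read 3.57 and 3.82 in KO-labelled arrays at 8 and 2 months, against 3.38 and 3.18 in WT-labelled arrays. The arrays did not overlap, and the gap was 0.20 at 8 months and 0.63 at 2 months. The mean difference of 0.41 (SE 0.15) missed the threshold, with a limma adjusted p of 0.096. The mean of the WT-labelled arrays, 3.28, was below the filter at 3.34, so Adm entered the test through the KO-labelled arrays, and its calls and folds are no support for a change. It passed after centring the arrays on their medians, after quantile normalization again and under cyclic loess, with limma adjusted p-values of 0.014, 0.029 and 0.027.

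Ndrg1 encodes a cytoplasmic protein that hypoxia and differentiation induce in many cell types. It read 5.69 and 5.64 in KO-labelled arrays at 8 and 2 months, against 6.05 and 6.10 in WT-labelled arrays. The 2 ages gave nearly the same values within each genotype, and the genotypes were well apart. The difference was -0.37 at 8 months and -0.45 at 2 months, so the KO-labelled level was 0.775 and 0.731 times the WT-labelled one. Over both ages Ndrg1 fell by 0.41 (SE 0.11, 95% interval of the difference -0.64 to -0.18), with a limma adjusted p of 0.026. The call was lost without the filter, without the intensity trend and after centring on medians, with limma adjusted p-values of 0.071, 0.056 and 0.061. It was also lost in the model of genotype alone without any 1 of the 4 arrays, with differences of -0.43 to -0.39 and limma adjusted p-values of 0.065 to 0.12. Of its relatives, Ndrg2, which is abundant in liver, was at -0.22 with a limma adjusted p of 0.078, Ndrg3 was at 0.14 with 0.465, and Ndrg4 was below the filter.

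Bnip3 encodes a receptor on the outer mitochondrial membrane that directs mitochondria to autophagy. It was measured by 2 probe sets, averaged here, and read 8.29 and 8.43 in KO-labelled arrays at 8 and 2 months, against 8.70 and 8.59 in WT-labelled arrays. All KO-labelled values were lower, with a difference of -0.41 at 8 months and -0.16 at 2 months. The mean difference of -0.28 (SE 0.09, 95% interval -0.47 to -0.10) missed the threshold, with a limma adjusted p of 0.054. Bnip3 passed under 5 of 9 other settings. The probe sets differed in size. The brighter Bnip3 probe set read 8.85 and 8.97 in KO-labelled arrays at 8 and 2 months, against 9.35 and 9.24 in WT-labelled arrays. The dimmer Bnip3 probe set read 7.72 and 7.90 in KO-labelled arrays, against 8.05 and 7.95 in WT-labelled arrays. The mean differences were -0.38 and -0.19, and with the brighter one alone Bnip3 fell, with a limma adjusted p of 0.0091. The platform table lists the same 3 accessions for both, so which transcripts each one also detects was not tested.

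Ankrd37, a small ankyrin repeat protein gene that HIF-1 induces in human cells, read 3.64 and 3.53 in KO-labelled arrays at 8 and 2 months and 3.60 and 3.80 in WT-labelled arrays. The genotypes overlapped and the sign differed between the ages, with 0.04 at 8 months and -0.26 at 2 months. The mean of -0.11 (95% interval -0.42 to 0.19) had a limma adjusted p of 0.68.

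Both KO-labelled arrays were above both WT-labelled arrays for Hif1a, Egln1, Egln3 and Adm, and below both for Vegfa, Ndrg1 and Bnip3. These 7 of 9 compare with 54.8% of all genes, 29.1% above and 25.7% below. Adm is counted among them although it passed the filter only through the KO-labelled arrays. At 8 months only Egln3 was at least 1.5-fold higher, where 2.41% of all genes were. At 2 months only Adm was, where 3.98% of all genes were, with its WT-labelled value under the filter. No member was 1.5-fold lower at either age, where 1.93% of all genes were at 8 months and 2.39% at 2 months. None passed 1.5-fold in the same direction at both ages, which 1.78% of all genes did upward and 1.06% downward.

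**Figure D2:**
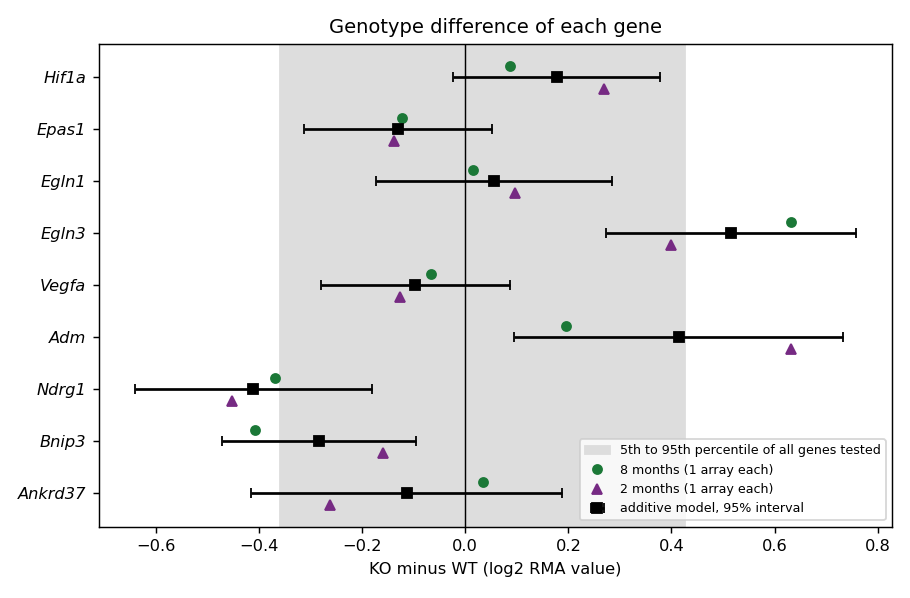
KO minus WT in log2 RMA units (x axis) for each of the 9 genes (y axis), with squares for the additive model and its 95% interval, circles for 8 months and triangles for 2 months (1 array per genotype each). The grey band spans the 5th to 95th percentile of all genes tested, -0.36 to 0.43, and the squares of Egln3 at 0.52 and Ndrg1 at -0.41 lie outside it.

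No age difference of the 9 genes passed the test. By limma, 0 of 9 passed for 8 minus 2 months, also at an unadjusted p under 0.05, where 0.00836% of all genes passed after adjustment and 3.6% before it. The largest age difference of the members was that of Epas1, which was lower at 8 months by 0.17 in KO-labelled and 0.18 in WT-labelled arrays, with a mean of -0.18 (95% interval -0.36 to 0.01, adjusted p 1.0, unadjusted p 0.056). Ndrg1 was at 0.00 on average. No member was 1.5-fold apart between the ages in either genotype, where 0.376% of all genes were higher and 0.276% lower at 8 months in KO-labelled arrays, and 0.209% higher and 0.443% lower in WT-labelled arrays.

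The machinery around HIF, a list of 24 genes of which 21 passed the filter, had 3 that rose and 0 that fell by the limma model, with 14 differences above 0 and a median of 0.06. Besides Egln3 these were Cul2, the scaffold of the VHL ubiquitin ligase, and Siah2, a ubiquitin ligase that acts on EGLN proteins. Cul2 read 7.15 and 7.45 in KO-labelled arrays at 8 and 2 months, against 6.93 and 6.85 in WT-labelled arrays, a rise of 0.41 (SE 0.10, limma adjusted p 0.024). Siah2 read 6.15 and 6.29 in KO-labelled arrays, against 5.81 and 5.92 in WT-labelled arrays, a rise of 0.35 (SE 0.10, limma adjusted p 0.046). Cul2 passed in 7 and Siah2 in 5 of 9 other settings, with adjusted p-values up to 0.098 and 0.11. Vhl itself, at 0.34, and Cited2, a HIF-induced competitor for the coactivator p300, at 0.255, did not pass, with limma adjusted p-values of 0.12 and 0.097. Hif3a and P4htm were below the filter. Over all genes tested, 6.81% rose, 4.26% fell and 6080 of 11963 differences were above 0.

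The wider list of hypoxia targets outside glycolysis had 46 genes, of which 37 passed the filter. By the limma model 5 of these 37 rose, 3 fell and 29 did not pass, where 6.81% of all genes rose and 4.26% fell. In the list, 20 differences were above 0, against 6080 of 11963 over all genes, and the median was 0.02. The highest was Wsb1, a SOCS-box ubiquitin ligase subunit, with 9.10 and 9.03 in KO-labelled arrays at 8 and 2 months, against 7.88 and 7.95 in WT-labelled arrays (difference 1.15, SE 0.08, limma adjusted p 1.3e-06). Zfp395, Egln3, the clock-linked repressor Bhlhe40 and P4ha1, a collagen prolyl hydroxylase, rose by 0.54, 0.52, 0.48 and 0.39, P4ha1 in 7 of 9 other settings as well. The lowest was the lipase inhibitor Angptl4, which is also a PPAR alpha target, with 5.997 and 6.23 in KO-labelled arrays at 8 and 2 months and 7.38 and 7.60 in WT-labelled arrays (difference -1.38, SE 0.09, limma adjusted p 7.8e-07). The glycogen targeting subunit Ppp1r3c and Ndrg1 fell by 0.55 and 0.41. Several targets lay near 0, among them Plin2 at 0.02, Trf (transferrin) at 0.01 and Bnip3l, the close relative of Bnip3, at -0.08. The hypoxia-induced genes Car9, Car12, Plod2, Lox, Epo and Stc2 were below the filter.

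**Figure D3:**
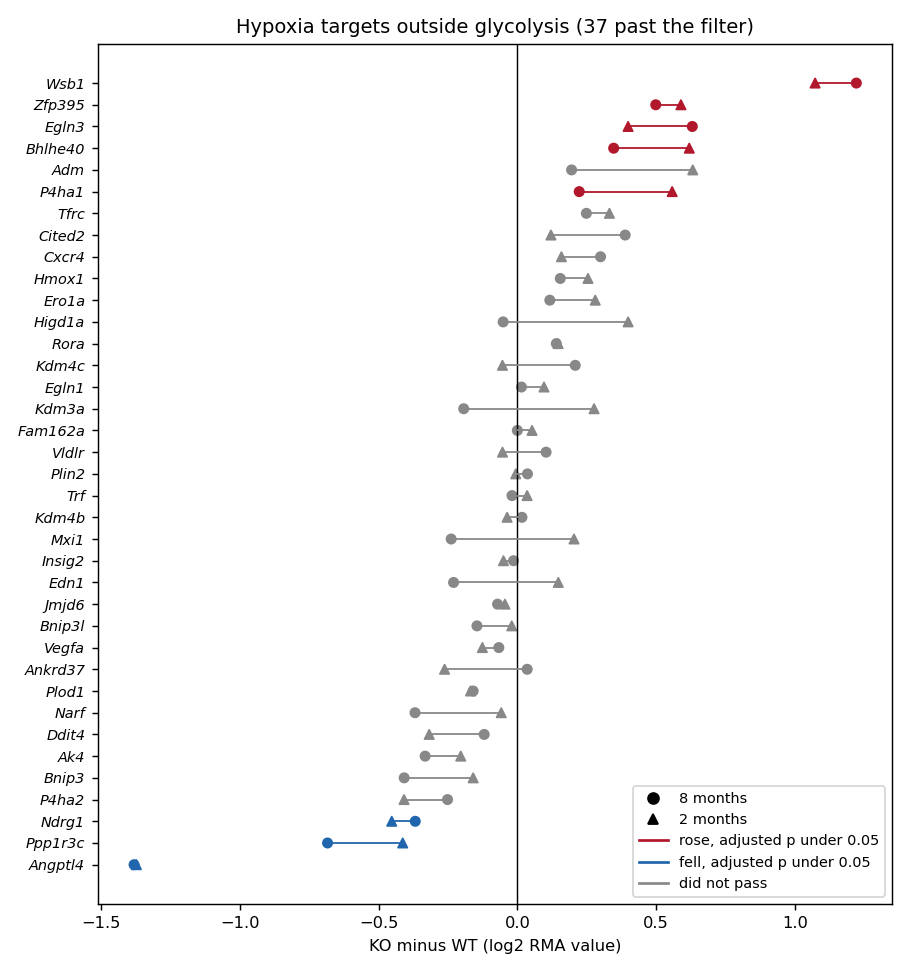
KO minus WT in log2 RMA units (x axis) for the 37 hypoxia targets outside glycolysis that passed the filter (y axis, ordered by the mean of both ages), with circles for 8 months and triangles for 2 months. Red genes rose, blue genes fell and grey genes did not pass the limma test, and the range runs from Angptl4 at -1.38 to Wsb1 at 1.15.

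HIF targets of glycolysis, given for comparison, had 15 genes past the filter, of which Pfkfb3 rose by 0.49 and Aldoc, Pkm and Slc2a1 fell by 0.68, 0.46 and 0.39. Under 9 other settings Aldoc passed in 9, Pfkfb3 in 8, Slc2a1 in 6 and Pkm in 5. The median difference was -0.08, with 2 of 15 above 0, the other being Pgam1 at 0.10. Over all genes tested, 6.81% rose, 4.26% fell and 6080 of 11963 differences were above 0. Whether this list differs from the targets outside glycolysis was not tested.

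Receptors and relatives of the secreted members had 16 genes past the filter. By the limma model 0 of them rose, where 6.81% of all genes did, and 1 fell, where 4.26% did. That gene was Nrp2, a coreceptor for VEGF ligands and semaphorins, with 5.22 and 5.21 in KO-labelled arrays at 8 and 2 months and 5.69 and 5.89 in WT-labelled arrays (difference -0.58, limma adjusted p 0.0059). The VEGF receptors Kdr and Flt1 were at -0.01 and -0.11, the endothelial receptor kinase Tie1 at -0.12, and the adrenomedullin receptor genes Calcrl and Ramp2 at -0.10 and -0.07. The highest were Adm, at 0.41, and the ligand Vegfb, at 0.33 with a limma adjusted p of 0.087. In the list of BNIP3 and mitophagy, beside the same shares of all genes, 1 of 14 genes fell and 0 rose by the limma model. It was Map1lc3b, which encodes an autophagosome protein that BNIP3 binds, with 6.79 and 6.97 in KO-labelled arrays at 8 and 2 months and 7.37 and 7.39 in WT-labelled arrays (difference -0.50, limma adjusted p 0.0031). The highest of that list, Pgam5 and Gabarapl2, were at 0.27 and 0.25 and did not pass, and Phb2 was at -0.23.

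Transcripts of other cell types and of the early stress response moved with the genotype labels, and their part in the results above was not tested. All 12 immediate early genes rose, with a median difference of 2.36, and Fos read 8.17 and 8.12 in KO-labelled arrays at 8 and 2 months against 4.39 and 4.49 in WT-labelled arrays. The others ranged from 0.74 for Dusp1 to 3.48 for Btg2. Egr2 is counted among the 12 although it passed the filter only through the KO-labelled arrays. It read 6.10 and 6.19 in KO-labelled arrays at 8 and 2 months. Its WT-labelled values, 3.27 and 3.05, were below the filter, so its call is no support for a change. Of 11 stellate and fibroblast markers 5 fell and 1 rose, where 4.26% of all genes fell and 6.81% rose. Acta2 was at -1.94, Vim at -0.87 and Col1a2 at -0.72. At 8 and 2 months Acta2 was at -2.01 and -1.86, Vim at -0.52 and -1.23, and Col1a2 at -0.45 and -0.99. For Vim and Col1a2 the WT-labelled array at 2 months was the highest, at 7.72 and 6.22, against 6.71 and 5.67 in the WT-labelled array at 8 months. The marker that rose was Reln, at 0.29, and 4 of the 11 differences were above 0. Pdgfrb, Lrat and Des, at 0.11, 0.06 and -0.04, did not pass. Sums of linear levels are led by the brightest probe sets, here Dcn at a difference of 0.09. The stellate sum was 1188 and 1230 in KO-labelled arrays at 8 and 2 months and 1256 and 1407 in WT-labelled arrays. Of 11 Kupffer cell markers 3 rose and 1 fell, with sums of 551 and 636 in KO-labelled arrays against 461 and 593 in WT-labelled arrays. Of 4 erythroid markers 2 rose, with sums of 308 and 340 in KO-labelled arrays against 199 and 220 in WT-labelled arrays.

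Epas1 and the Vegfa receptors are prominent in endothelial cells. Of 14 endothelial markers Cdh5 rose by 0.45 and 0 fell, where 6.81% of all genes rose and 4.26% fell. Lyve1 was at 0.44 with a limma adjusted p of 0.058. Cdh5 and Lyve1 were the highest of the list, in which 6 of 14 differences were above 0 and the median was -0.02. The lowest were Vwf and Stab1, at -0.20 and -0.19. The endothelial sums were 893 and 949 in KO-labelled arrays at 8 and 2 months and 900 and 933 in WT-labelled arrays. None of 9 hepatocyte markers passed by limma, where 11.1% of all genes did in either direction. All of these 9 but Hnf4a lay near the top of the intensity scale. Apoa1 and Cps1 came nearest, at -0.23 and -0.24, both with a limma adjusted p near the threshold (0.060 and 0.059). The hepatocyte sums were 34038 and 35187 in KO-labelled arrays and 35841 and 34695 in WT-labelled arrays. Beside the same share of all genes, none of 4 cholangiocyte markers passed by limma, but Tspan8 read 3.56 on every array and could not pass. Their sums were 58.1 and 60.02 in KO-labelled arrays and 60.4 and 64.6 in WT-labelled arrays. Of the lymphocyte and neutrophil markers, only Cd3e was above the filter, at 3.95 and 3.63 in KO-labelled and 3.91 and 4.04 in WT-labelled arrays. In whole liver, fewer cells of a type and less RNA per cell cannot be told apart.

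The genes whose values over the 4 arrays were closest to those of Egln3, by Euclidean distance between mean-centred log2 values among 11353 genes, were Snx12, Plekhb1 and Adamts1, at distances of 0.02, 0.05 and 0.06. For Ndrg1 they were Prss56, Scarb1 and Mrpl30, each at 0.03. With 4 arrays, such closeness is a description of these arrays.

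**Figure D4:**
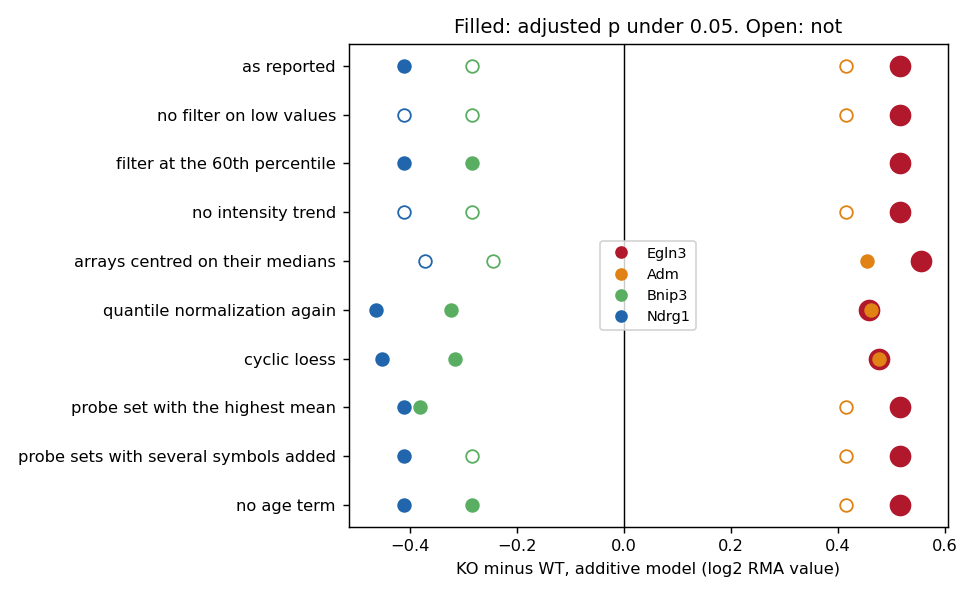
KO minus WT from the additive model in log2 RMA units (x axis) for Egln3, Adm, Bnip3 and Ndrg1 under the setting reported and 9 others (y axis), with filled points where the limma adjusted p was under 0.05 and open points where it was not. Egln3 is filled and between 0.46 and 0.55 under all 9, Ndrg1 is filled in 6 of 9, Bnip3 in 5 of 9 and Adm in 3 of the 8 that measured it.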

How the data were processed

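The authors deposited 1 log2 value per probe set. Per the submitters' processing notes, these come from RMA and Affymetrix Expression Console 1.0v. RMA corrects background, quantile normalizes arrays and summarises probes. The log base is that of RMA. The arrays normalized together and the build of the annotation are not given in the sources used here. Of 35556 probe sets, the 21789 with 1 symbol in the platform table were averaged per gene. Identifiers were matched to RefSeq (GRCm38.p6), and 91 without a match kept the platform's symbol. Genes with a mean above the 40th percentile (3.34) were tested. In limma 3.58.1 (R 4.3.3), lmFit and eBayes fitted the additive model with an intensity trend, 1 residual degree of freedom and a prior of 11.3. The code was tried on data simulated as additive from the fitted means and spread. Those data share the model's assumptions, so they cannot show how the test behaves with spread between pools or animals. An array has no read depth, and the number of arrays limits the precision.

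The members and the lists were chosen with earlier results of these data known. Named genes are the members, Sirt6, the called genes of the machinery list, the called and the 2 highest and 2 lowest genes of the other lists, markers, and the 3 genes nearest in pattern to each called member. Of the immediate early genes only some are named. Arnt, Egln2, Hif1an, Vhl, Cited2, Plin2, Trf, Bnip3l, the VEGF and adrenomedullin receptors, Ndrg3 and genes below the filter were added for their roles after their values were seen. Alternatives were other filters, no trend, other normalizations, other probe set rules, a model with 1 factor and, without the age term, leaving out each array.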

Additional observations from a re-analysis of the deposited data

Results flagged for a closer look

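The age difference had opposite signs in the KO-labelled and the WT-labelled arrays for 7 of the 9 genes. With 1 array per group this was not tested, and a sign alone puts no lower bound on the size. The share of all genes with opposite signs was not counted, so the 7 of 9 is not read as a result about these genes. The change of the genotype difference, 8 months minus 2 months, was -0.44 for Adm, which was at -0.24 in KO-labelled and 0.19 in WT-labelled arrays for 8 minus 2 months. It was 0.30 for Ankrd37, whose genotype difference also had opposite signs at the 2 ages, -0.25 for Bnip3, 0.23 for Egln3, -0.18 for Hif1a, 0.085 for Ndrg1 and -0.081 for Egln1.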

How the results depend on the processing

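The call of Egln3 held under the 9 alternatives that used all 4 arrays, with differences of 0.46 to 0.55 and limma adjusted p-values of 0.0026 to 0.041. Ndrg1 ranged from -0.46 to -0.37, Bnip3 from -0.38 to -0.24 and Adm from 0.41 to 0.48. The number of the 9 genes that fell was 0 without the filter, without the trend and after median centring, and 2 with the 60th percentile filter, quantile normalization again, cyclic loess, the brightest probe set or no age term. The number that rose was 2 after median centring, quantile normalization again and cyclic loess. The added gene in each was Adm, whose limit at the filter is given above. Over all genes, against 815 that rose and 510 that fell, 463 rose and 289 fell without the filter, 521 and 325 without the trend, and 864 fell after quantile normalization again and 785 under cyclic loess. For age, 1 gene fell and 0 rose by limma over all genes (431 at an unadjusted p under 0.05). Instead 0 fell without the filter, the trend or the genotype term, 12 fell and 2 rose after median centring, 3 fell under quantile normalization again and cyclic loess, and 2 with the brightest probe set. At 2-fold, 0 members stood apart at either age, and 0 at 2 months with the 60th percentile filter, which removes Adm and Ankrd37. For the lists, alternatives chosen after seeing the data gave 1 to 3 machinery genes that rose, 4 to 6 targets outside glycolysis that rose and 2 to 5 that fell, and 1 to 5 mitophagy genes that fell.

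Signs turned only for values near 0. The genotype difference of Egln1 was -0.0043 after quantile normalization again. For 8 minus 2 months, Egln1 was at 0.0079 and Ndrg1 at 0.035 after quantile normalization again, and Egln1 was at 0.011, Ndrg1 at 0.032 and Bnip3 at 0.0054 under cyclic loess. The cause of these shifts was not tested. No paired analysis was possible because each group is 1 array and the labels give no replicate numbers. The additive model has no residual without 1 array, so arrays were left out of a model of genotype alone, an alternative chosen after seeing the data in which the lone array of a genotype is assumed to vary like the others. Of the 9 genes, Egln3 alone rose without the WT-labelled array at 2 months, 0 rose without any other array, and 0 fell. Over all genes, 573 rose and 266 fell without the KO-labelled array at 8 months, 276 and 228 without that at 2 months, 627 and 388 without the WT-labelled array at 8 months, and 533 and 306 without that at 2 months. No member changed sign in these fits.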
